A study of Mus musculus with 6 samples.

Results

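The insulin-like growth factor (IGF) genes examined here were the ligands Igf1 and Igf2, the receptors Igf1r and Igf2r, and the binding proteins Igfbp2 to Igfbp7. They were found as the rows whose Ensembl identifier carries 1 of these 10 symbols in the GENCODE M21 mouse annotation. Of the 10 genes, 9 had a row among the 29616 genes listed, and Igf2 was not analysed here. Testing required that the mean over the libraries reach 10 normalized counts, which held for 8 of them and not for Igfbp3. The RNA sequencing covered 3 control libraries and 3 dexamethasone libraries from C57BL/6 mice. Dexamethasone is a synthetic glucocorticoid, and the treated mice had received a daily dose of 0.08 µg per g of body weight over 4 weeks, from the age of 8 weeks. According to the study's methods, Osteocalcin-positive cells were taken from bones without their marrow, and cells for expression work had been fixed and permeabilized before antibody staining. The study names saline as the control treatment of this mouse model. The labels name the material only as bone cells, and whether a library holds the cells of a single mouse or of several is not given in the sources used here. The p-values therefore measure the spread between these libraries.

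IGF1 and IGF2 are secreted growth factors that act through the tyrosine kinase receptor Igf1r. Igf2r, the cation-independent mannose 6-phosphate receptor, takes up IGF2 for degradation and does not carry the growth signal. The binding proteins hold IGFs in the extracellular space and can restrain or prolong their action, and proteases such as pappalysins release the ligand again. In bone, osteoblasts make IGFs and several binding proteins, and the matrix stores them.

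Reads counted to the listed genes, as recovered from the deposited values, came to between 72596611 and 89910728 per library. A normalized count is the read count divided by a size factor of its library, and a fold change below is the difference of mean log2(normalized count + 1), dexamethasone minus control. Known glucocorticoid targets were higher in the libraries labelled as treated, with log2 fold changes of 4.41 for Fkbp5 and 1.65 for Tsc22d3. Of the 10 osteoblast markers examined, 9 fell and Spp1 (osteopontin) rose. Of the 6 osteocyte markers, 4 had a row and summed to 8220 to 8760 normalized counts in the controls and 18449 to 19774 with dexamethasone, mostly from Pdpn. Among them, Dmp1 rose from 38.5 ± 2.66 to 5639 ± 326 normalized counts (SD, n = 3). The log2 fold changes of Phex, Pdpn and Mepe were 0.60, 0.68 and -0.77, and that of Mepe did not pass the adjusted p-value. Bglap and Bglap2 both encode Osteocalcin. Bglap had only 98.2, 102 and 122 normalized counts in the control libraries and 9.54 to 15.1 in the dexamethasone libraries. Bglap2 was higher, with 339, 333 and 300 in the control libraries and 29.6 to 33.7 in the dexamethasone libraries. Of the 8 endothelial markers, 7 had a row and summed to 381 to 417 normalized counts in the controls and 456 to 491 with dexamethasone. Most of it came from Kdr, and the defining markers Cdh5 and Tie1 had at most 3 reads in every library. The log2 fold changes of Kdr and Pecam1 were 0.25 and 0.74. Those of Tek and Egfl7 were -0.75 and 0.12 and did not pass the adjusted p-value. Pecam1 had 11 to 22 reads per control library and 18 to 31 per dexamethasone library. Of the 5 pan-hematopoietic markers, all in the table, Cd53 and Itgb2 were differentially expressed upward and Laptm5 and Coro1a downward. The defining marker Ptprc had 2 to 3 reads per control library and 3 to 5 per dexamethasone library, too few to be tested. The sum over the 5 was 92.3 to 129 normalized counts in the controls and 775 to 823 with dexamethasone, the latter mostly from Cd53 and Itgb2. The smooth muscle and pericyte markers, with 4 of 4 in the table, summed to 148030 to 155884 against 21841 to 23278, a sum made up mostly of Acta2, while Cspg4 went from 7548 ± 298 to 10185 ± 502 (SD, n = 3). The tendon and fibroblast markers, with 3 of 4 in the table and Scx as most of their sum, had 1160 to 1343 against 160 to 178. The chondrocyte markers, with 4 of 4, had 5828 to 6297 against 22067 to 24917, nearly all of it from Sox9 and Col2a1. Acan and Col10a1 were too low to be tested, and Col10a1 had 6.43 to 14.7 against 3.27 to 4.77. The part of such cells in the results below was not tested. In RNA from many cells, fewer cells of a type and less RNA per cell cannot be told apart.

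To determine which IGF genes differed after dexamethasone, normalized counts were compared across all 17442 genes with enough reads. A gene was called differentially expressed below an adjusted p-value of 0.05 if its log2 fold change also reached 1 or -1. Of the 8 IGF genes tested, 1 was differentially expressed upward (Igf1r), where 11.7% of all tested genes were. Downward there were 4 (Igf1, Igfbp2, Igfbp4 and Igfbp5), where 10.6% of all tested genes were. With the adjusted p-value alone, 2 were higher and 6 lower, against 37.2% and 35.2% of all tested genes. The control and dexamethasone libraries did not overlap for any of the 8 IGF genes, but they did not overlap for 74.7% of all tested genes either. The median log2 fold change of the 8 genes was -1.06, and that of all tested genes was 0.000712. The median size of the fold change without regard to its sign was 1.22 for the 8 genes and 0.45 for all tested genes.

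**Figure D1:**
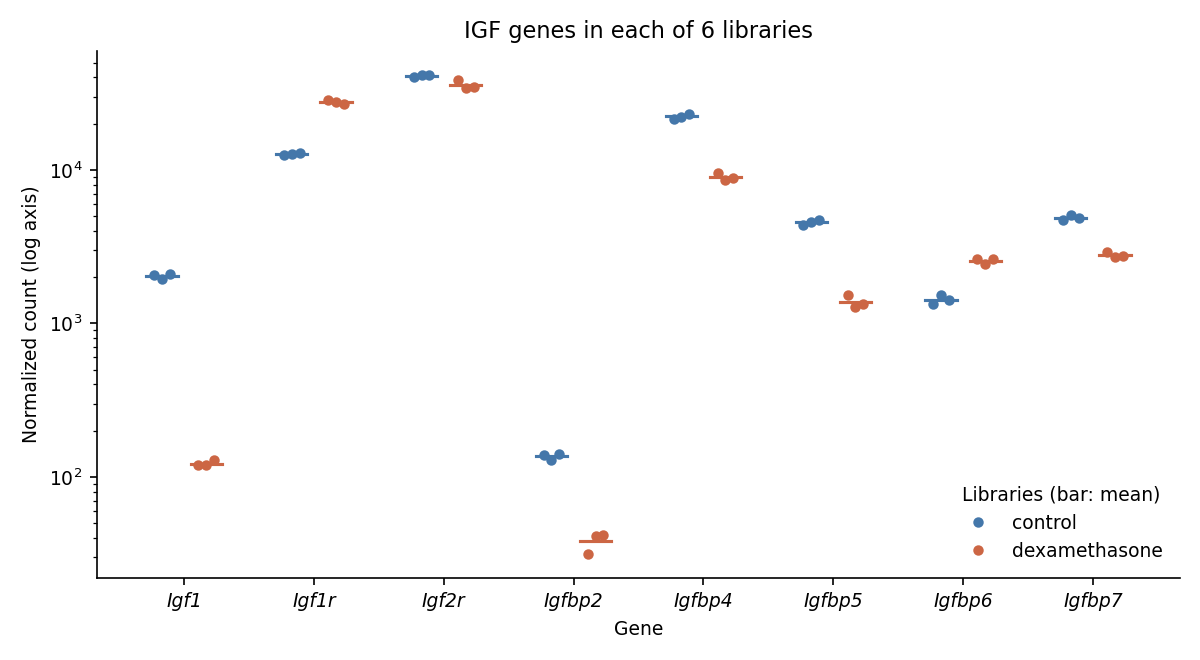
Normalized counts of the 8 tested IGF genes on a log axis, with 1 point per library, control in blue and dexamethasone in orange, and bars at the group means. Igf1 has the widest gap between its groups, and Igf1r and Igfbp6 are the 2 genes with all dexamethasone points above the control points.

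Among the ligands, Igf1 showed the largest change of the IGF genes tested. Its normalized counts were 2061, 1955 and 2084 in the controls and 119, 119 and 128 with dexamethasone, in the order of the replicates, here and below. The treated libraries were all far below the controls, and neither group spread much, with a coefficient of variation of 3.39% in the controls and 4.21% with dexamethasone. The means were 2034 ± 68.9 and 122 ± 5.13 normalized counts (SD, n = 3), so that 6.00% of the control level remained. This is a log2 fold change of -4.05 (standard error, SE, 0.0711, adjusted p = 1.48e-24, limma), larger in size than that of 98.9% of the genes tested. It rested on 109 to 125 reads per dexamethasone library and on 1998 to 2372 reads per control library. Macrophages are another known source of Igf1. Of 7 macrophage markers, 4 had a row, and they did not move together, with Cd68 and Mrc1 differentially expressed upward and Lyz2 downward. Their sum was 1206 to 1229 normalized counts in the controls and 898 to 1072 with dexamethasone, most of it from Lyz2. Lyz2 (lysozyme) had 996 ± 9.70 (SD, n = 3) normalized counts in the controls and 351 ± 13.6 (SD, n = 3) with dexamethasone, and Cd68 had 173 ± 14.1 and 596 ± 71.3 (SD, n = 3). Csf1r, the receptor for macrophage colony-stimulating factor, was low in both groups, with 46.0 ± 7.49 and 28.3 ± 0.358 normalized counts (SD, n = 3). The defining macrophage markers Adgre1, C1qa and C1qb were not analysed here.

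The promoter listed for Igf1 is shown because the gene had the largest fall. Igf1 has 8 annotated transcripts, and which start these cells use was not tested. The 250 bases before the listed start are those of RefSeq for the GRCm38.p6 build, chr10:87860861-87861110, on the plus strand, and 52.8% of them are G or C. The median over 32851 promoters of this length was 52.4%.
Igf1: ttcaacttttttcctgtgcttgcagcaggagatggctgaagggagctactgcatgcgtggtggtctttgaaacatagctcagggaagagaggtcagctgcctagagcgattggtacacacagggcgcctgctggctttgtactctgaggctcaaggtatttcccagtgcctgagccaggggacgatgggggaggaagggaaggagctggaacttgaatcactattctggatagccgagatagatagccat
Capitals in this and the following promoters mark the letters AGAACA, the core to which the glucocorticoid receptor can bind, and the GC box GGGCGG, each on either strand. The Igf1 window holds neither. AGAACA occurred in 16.1% of all promoters and in 2 of the 14 promoters listed for the 10 IGF genes, 1 of Igfbp2 and 1 of Igf2. The full palindrome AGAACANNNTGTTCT, of which AGAACA is a part, was in 3 of the 32851 promoters and in 0 of these 14. The GC box, in 32.7% of all promoters, was in 6 of the 14. Such matches are letters in a window and were not measured as binding here.

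The genes whose pattern over the 6 libraries was closest to that of Igf1 were sought among the 12014 genes whose mean reached 100 normalized counts. Likeness was the root mean square difference of log2 values, each centred on its control mean. Adh1, an alcohol dehydrogenase that can oxidize retinol, differed by 0.0885 and had 1001 ± 27.4 and 63.8 ± 3.75 normalized counts (SD, n = 3) in the control and dexamethasone libraries. Nrep differed by 0.0898, with 2333 ± 40.2 and 149 ± 4.89 normalized counts (SD, n = 3). P2rx6, a subunit of ATP-gated ion channels, differed by 0.131, with 293 ± 15.0 and 17.4 ± 2.18 normalized counts (SD, n = 3). Their log2 fold changes were -3.95, -3.96 and -4.00, and that these lie near that of Igf1 follows from how the genes were chosen.

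Of the receptors, Igf1r rose and Igf2r fell slightly. Igf1r, which carries the signal of both ligands, had 12562, 12694 and 12861 normalized counts in the controls and 28689, 27487 and 26688 with dexamethasone. Every treated library lay above every control. The means were 12706 ± 150 and 27621 ± 1007 (SD, n = 3), a ratio of 2.17. The log2 fold change was 1.12 (SE 0.0358, adjusted p = 3.15e-19, limma). It was 1.01 when all libraries were set to the same total and 0.95 after quantile normalization, which is under the cut-off of 1, and these scalings moved the median of all tested genes to -0.11 and -0.07. Igf2r had 40006, 41682 and 41285 normalized counts in the controls and 38265, 34396 and 34733 with dexamethasone. Dexamethasone replicate 1 lay closest to the controls, and the groups did not overlap. The log2 fold change of Igf2r was -0.20 (SE 0.0413, 95% confidence interval -0.28 to -0.11, adjusted p by limma 0.000157), a smaller change than the median of all genes tested, with 87.3% of the control level remaining.

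The Igf1r promoter is shown as that of the gene called upward, at chr7:67952007-67952256 of GRCm38.p6 (RefSeq), on the plus strand. The bases after its listed start were not found in an annotated transcript, and which start these cells use was not tested. This window holds 2 GC boxes and no AGAACA, and 77.6% of its bases are G or C.
Igf1r: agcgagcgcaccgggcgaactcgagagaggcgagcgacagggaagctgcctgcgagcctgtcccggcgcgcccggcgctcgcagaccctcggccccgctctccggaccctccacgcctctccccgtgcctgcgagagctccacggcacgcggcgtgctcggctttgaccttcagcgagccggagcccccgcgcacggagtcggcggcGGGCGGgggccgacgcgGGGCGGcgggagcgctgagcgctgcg
Compared with the Igf1 window it is rich in G and C and repeats the GC box near the start.

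**Figure D2:**
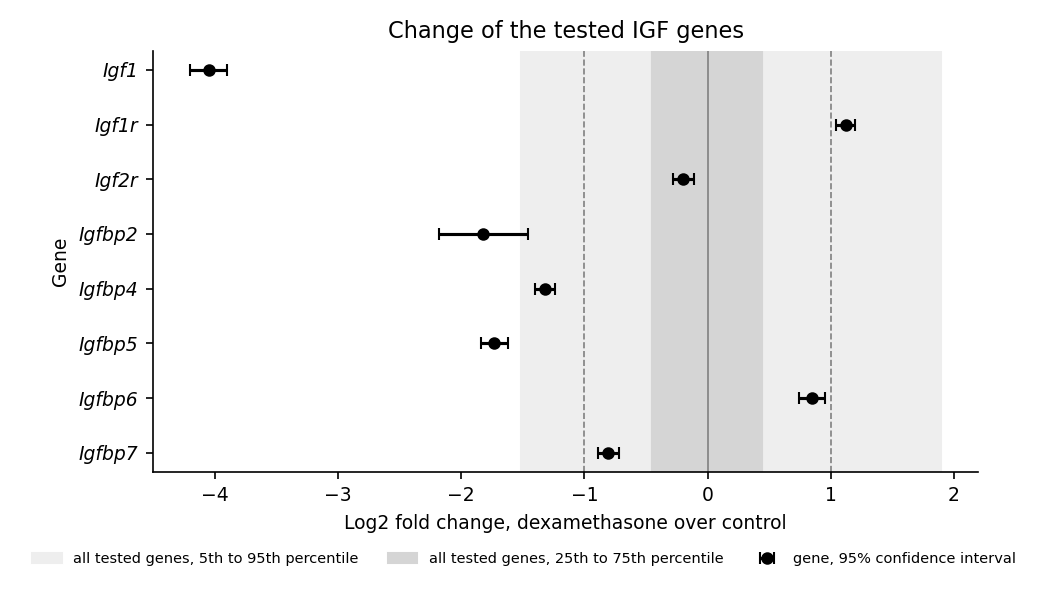
Log2 fold change of each tested IGF gene, dexamethasone over control, with its 95% confidence interval, over bands that hold the middle part of all tested genes (dark, 25th to 75th percentile, and light, 5th to 95th). Dashed lines mark the cut-off of 1 in each direction. Igf1, Igfbp2 and Igfbp5 lie left of the light band, and the interval of Igf2r lies inside the dark band.

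The binding proteins did not all move in one direction. Of the 6, 5 could be tested, and 3 of them were differentially expressed, each downward, where 10.6% of all tested genes were. With the adjusted p-value alone 4 were lower and 1 higher, against 35.2% and 37.2% of all tested genes. Their median log2 fold change was -1.32, against 0.000712 over all tested genes. Igfbp4, which in most settings restrains IGF action and is a substrate of pappalysins, had 21603, 22225 and 23292 normalized counts in the controls and 9489, 8574 and 8894 with dexamethasone. The treated libraries were all well below the lowest control. Its mean went from 22373 ± 854 to 8986 ± 464 (SD, n = 3), a log2 fold change of -1.32 (SE 0.0398, adjusted p = 9.59e-20, limma). Igfbp5, a binding protein that attaches to extracellular matrix and bone mineral, had 4403, 4563 and 4743 normalized counts in the controls and 1534, 1270 and 1336 with dexamethasone. Its mean went from 4569 ± 170 to 1380 ± 137 (SD, n = 3), a log2 fold change of -1.73 (SE 0.0538, adjusted p = 1.76e-19, limma), and 30.2% of the control level remained.

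Igfbp2, which besides IGFs binds integrins on the cell surface, was present at a low level. It had 139, 129 and 141 normalized counts in the controls and 31.5, 41.4 and 41.9 with dexamethasone, from 132 to 161 and from 33 to 38 reads per library. The groups were well apart, although the relative spread with dexamethasone, a coefficient of variation of 15.3%, was the highest of the tested IGF genes. The mean went from 136 ± 6.45 to 38.3 ± 5.87 (SD, n = 3), a log2 fold change of -1.82 (SE 0.174, adjusted p = 1.13e-09, limma). Of the 2 promoters listed for Igfbp2, the one at chr1:72824230-72824479 of GRCm38.p6 (RefSeq), plus strand, is shown because it is the only promoter of a tested IGF gene with AGAACA. It also holds 3 GC boxes. The bases after its listed start were not found in an annotated transcript, unlike those of the other Igfbp2 promoter. Which start these cells use was not tested.
Igfbp2: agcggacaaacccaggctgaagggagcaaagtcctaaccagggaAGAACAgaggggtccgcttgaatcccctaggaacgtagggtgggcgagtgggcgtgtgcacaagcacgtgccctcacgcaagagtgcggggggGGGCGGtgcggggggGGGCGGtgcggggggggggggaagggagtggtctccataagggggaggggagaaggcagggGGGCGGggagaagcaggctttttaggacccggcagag

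Igfbp6 was the binding protein that rose. It binds IGF2 in preference to IGF1, and had 1333, 1526 and 1417 normalized counts in the controls and 2634, 2424 and 2628 with dexamethasone. All treated libraries exceeded all controls. The mean went from 1425 ± 97.0 to 2562 ± 119 (SD, n = 3), a log2 fold change of 0.85 (SE 0.0514, adjusted p = 1.74e-13, limma), which is short of the cut-off of 1. Igfbp7, a related protein with weak affinity for IGFs, had 4738, 5054 and 4877 normalized counts in the controls and 2933, 2717 and 2742 with dexamethasone. Its log2 fold change was -0.81 (SE 0.0411, adjusted p = 5.10e-15, limma), also short of the cut-off, and 57.2% of the control level remained. In the annotation, 7.03% of the Igfbp7 exon bases also lie in Polr2b, which runs on the opposite strand, and the strand setting of the count is not given in the sources used here. Igfbp3, the main carrier of IGFs in serum, had 3 reads in control replicate 2 and 0 in the other 5 libraries. A count of 0 allows up to 3 reads in a library, so that no difference in Igfbp3 was detectable at this depth.

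To compare the levels of the IGF genes with each other, normalized counts were divided by gene length, taken as all annotated exon bases of a gene or, as an alternative, as the mean length of its annotated transcripts. The order of the genes depended on this choice. By exon length, in the controls Igfbp4 was highest, with 5066 ± 193 (SD, n = 3) normalized counts per kilobase, followed by Igf2r with 4404 ± 94.1 (SD, n = 3) and Igfbp7 with 4044 ± 131 (SD, n = 3). Igfbp6 came next with 1282 ± 87.2 (SD, n = 3), and then Igfbp5 with 761 ± 28.3 (SD, n = 3) and Igf1r with 757 ± 8.92 (SD, n = 3), whose libraries overlapped. Igf1, with 205 ± 6.96 (SD, n = 3) per kilobase, and Igfbp2, with 73.9 ± 3.49 (SD, n = 3), were the lowest of the tested genes. With the exception of Igfbp5 and Igf1r, the libraries of neighbours in this order were apart. By mean transcript length, Igfbp4, Igf2r and Igfbp7 were again the highest and Igfbp2 the lowest, but Igf1r, with 3782 ± 44.6 (SD, n = 3) per kilobase, was above Igfbp6 and far above Igfbp5, with 888 ± 33.0 (SD, n = 3), and Igf1, with 1035 ± 35.1 (SD, n = 3), was above Igfbp5 too.

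With dexamethasone the order per kilobase of exon differed from that in the controls. Igf2r was highest with 3846 ± 230 (SD, n = 3), and Igfbp7 with 2314 ± 97.7 (SD, n = 3) and Igfbp6 with 2304 ± 107 (SD, n = 3) overlapped. Igfbp4 came behind them by this length, with 2035 ± 105 (SD, n = 3), and Igf1r had 1645 ± 60.0 (SD, n = 3) per kilobase. Igfbp5 had 230 ± 22.9 (SD, n = 3), below all libraries of Igf1r. Igfbp2 had 20.7 ± 3.18 (SD, n = 3), and Igf1 had 12.3 ± 0.518 (SD, n = 3) per kilobase, the lowest of the tested genes by this length. By mean transcript length Igf2r was again the highest, but Igf1r, with 8223 ± 300 (SD, n = 3), and Igfbp4, with 7596 ± 393 (SD, n = 3), were both above Igfbp7, with 2416 ± 102 (SD, n = 3), and Igfbp6, whose length was the same. Igf1, with 62.1 ± 2.61 (SD, n = 3), was then above Igfbp2, with 35.8 ± 5.50 (SD, n = 3). The ratio of Igf1r to Igf2r per kilobase of exon was 0.172 ± 0.00272 (SD, n = 3) in the controls and 0.428 ± 0.0138 (SD, n = 3) with dexamethasone, without overlap between the libraries (exact permutation test, two-sided, p = 0.1, the smallest that 3 against 3 libraries allow). By mean transcript length it was 0.306 ± 0.00483 and 0.761 ± 0.0246 (SD, n = 3), and the ratio with dexamethasone was 2.49 times that in the controls by either length.

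**Figure D3:**
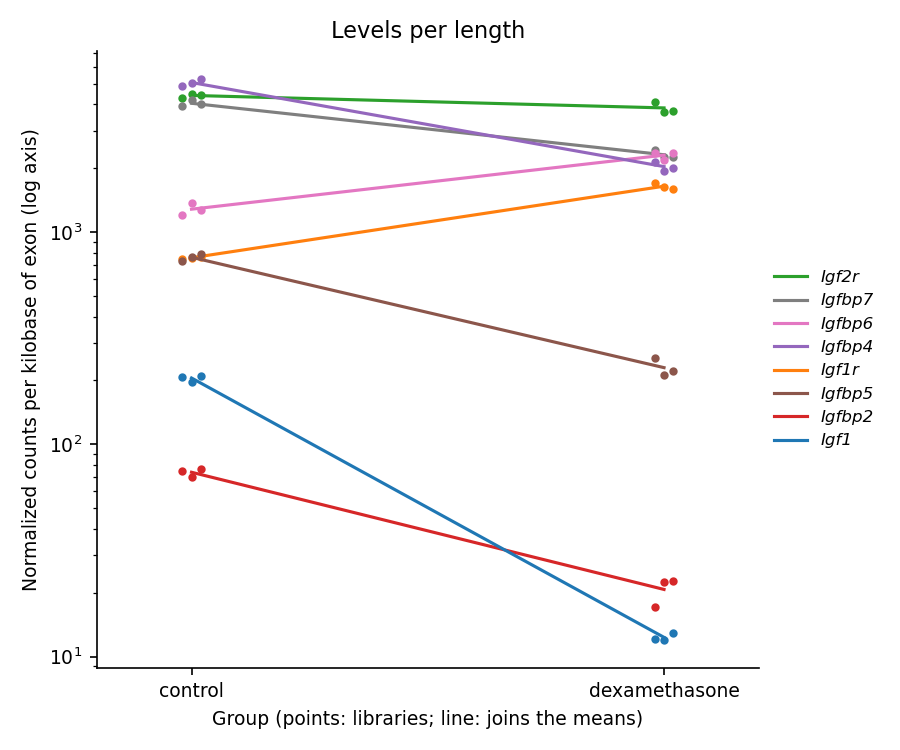
Normalized counts per kilobase of all annotated exon bases, on a log axis, for the 8 tested IGF genes, in the control and dexamethasone libraries (points), with lines between the group means. The lines of Igf1r and Igfbp5 start together and separate, Igfbp6 rises to the level of Igfbp7 and Igfbp4, and the line of Igf1 crosses below that of Igfbp2. The slopes do not depend on the gene length, but the heights and crossings do, and by mean transcript length Igf1 stays above Igfbp2.

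The make-up of the binding protein transcripts was compared as the share of each in the summed counts per kilobase of exon of Igfbp2 to Igfbp7, a measure that does not depend on the size factors. Igfbp4 made up 45.2, 44.1 and 46.1% in the controls and 29.8, 29.4 and 29.2% with dexamethasone. Igfbp6 made up 11.1, 12.02 and 11.1% in the controls and 32.8, 33.0 and 34.3% with dexamethasone. The mean share of Igfbp4 was thus 15.7 percentage points lower after treatment, from 45.1 ± 0.997% to 29.5 ± 0.281% (SD, n = 3), and that of Igfbp6 was 22.0 points higher, from 11.4 ± 0.532% to 33.4 ± 0.802% (SD, n = 3). Igfbp5 went from 6.78 ± 0.121% to 3.32 ± 0.188% (SD, n = 3) and Igfbp2 from 0.658 ± 0.0417% to 0.302 ± 0.0569% (SD, n = 3). The libraries of the groups did not overlap in these shares, and the exact two-sided permutation test gave p = 0.1 for each, or 0.12 after adjustment over the 6 shares, so that none could pass 0.05 in this design. Igfbp7 went from 36.0 ± 0.712% to 33.5 ± 0.569% (SD, n = 3), 2.50 points lower, but this direction depended on the length used. With the mean transcript length the share of Igfbp7 was 2.54 points higher, and without division by length 3.11 points higher. The other changes kept their direction under these alternatives and differed in size, at 13.2 and 11.99 points for Igfbp6, -14.2 and -9.99 for Igfbp4, -1.37 and -4.94 for Igfbp5, and -0.217 and -0.165 for Igfbp2.

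**Figure D4:**
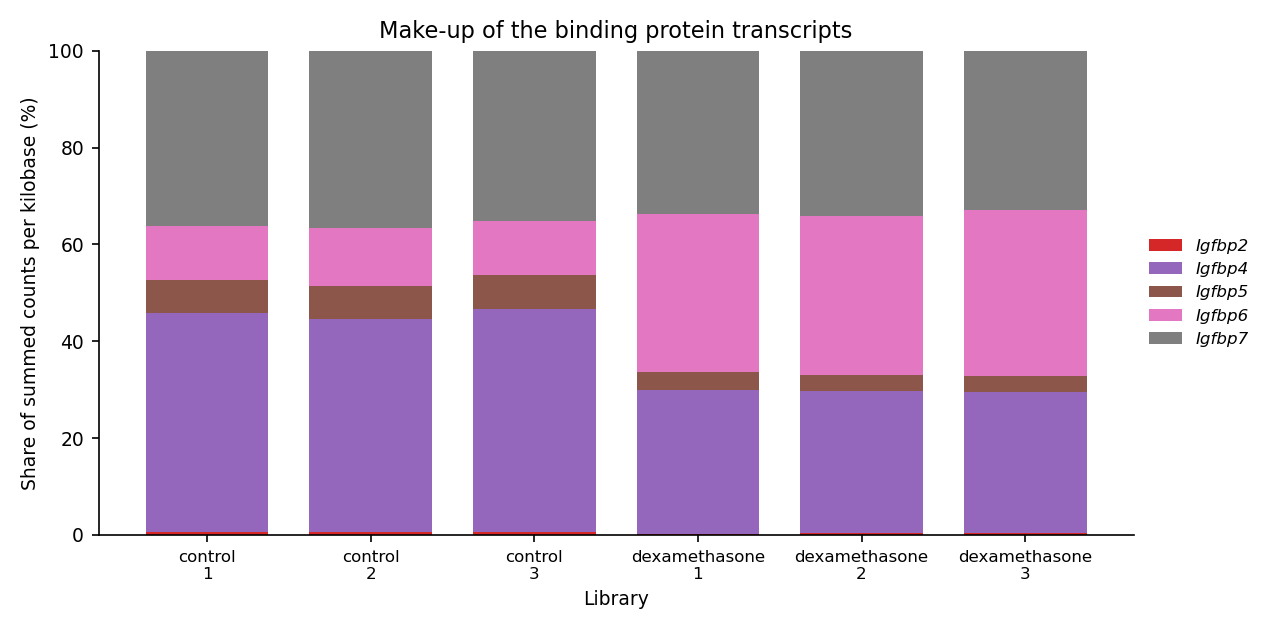
Share of each binding protein in the summed normalized counts per kilobase of Igfbp2 to Igfbp7, in percent, with 1 bar per library. Igfbp4 takes 44.1 to 46.1% of each control bar and 29.2 to 29.8% of each dexamethasone bar, and Igfbp6 takes 11.1 to 12.02% and 32.8 to 34.3%.

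Binding proteins and ligand were also compared with each other. Summed over Igfbp2 to Igfbp6, the binding proteins had 7183 ± 262 (SD, n = 3) normalized counts per kilobase in the controls and 4589 ± 219 (SD, n = 3) with dexamethasone. Unlike in the shares above, Igfbp7 was left out of this sum for its weak affinity for IGFs. Igf1 was the only ligand in this ratio, since Igf2 was not analysed. The binding protein level was 33.2, 36.7 and 35.2 times that of Igf1 in the controls and 398, 363 and 358 times with dexamethasone. By mean transcript length the mean ratio was 20.5 in the controls and 164 with dexamethasone. Binding protein transcripts thus fell less than the transcript of the ligand. The log2 ratio went from 5.13 ± 0.0730 to 8.54 ± 0.0828 (SD, n = 3), a difference of 3.41 (exact two-sided permutation test, p = 0.1, the smallest possible). This difference was 3.003 with the mean transcript length, 2.92 without division by length, and 3.36 with Igfbp7 included.

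To place these changes among other genes of the pathway, a list of 41 genes that encode adaptors, kinases, IGF-related proteases and regulators was followed. Of these, 34 had a row and 31 were tested. Among the tested genes, 2 were differentially expressed upward and 8 downward, where 11.7% and 10.6% of all tested genes were, a count that was 2 and 5 without control replicate 2. With the adjusted p-value alone 12 were higher and 16 lower, against 37.2% and 35.2% of all tested genes, and after quantile normalization 8 and 17. Their median log2 fold change was -0.34. Among the proteins that bind the receptor, Irs1, the main docking protein of Igf1r, had 36518, 37828 and 37422 normalized counts in the controls and 6824, 6291 and 6562 with dexamethasone. Its log2 fold change was -2.51 (adjusted p = 4.33e-26, limma), and 30.9% of its exon bases also lie in Gm9747, a gene of the opposite strand. Irs2, a second docking protein, had 2479 ± 8.68 and 4896 ± 221 normalized counts (SD, n = 3), a log2 fold change of 0.98 (adjusted p = 5.99e-17, limma), just under the cut-off. Grb10, an adaptor that dampens signalling of Igf1r and the insulin receptor, fell from 37830 ± 1262 to 17796 ± 679 normalized counts (SD, n = 3), a log2 fold change of -1.09. Insr, the insulin receptor, had a log2 fold change of 0.19, and the kinases Akt1 and Akt2 had 0.19 and -0.34, none of them reaching the cut-off.

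The proteases that act on binding proteins differed among themselves. Pappa2, a pappalysin that cleaves Igfbp3 and Igfbp5, had 22171, 23528 and 24384 normalized counts in the controls and 2918, 2612 and 2612 with dexamethasone. Its log2 fold change of -3.11 (adjusted p = 2.35e-26, limma) left 11.6% of the control level. Pappa, which cleaves Igfbp4, fell from 3220 ± 104 to 1547 ± 50.04 normalized counts (SD, n = 3), a log2 fold change of -1.06 (adjusted p = 7.54e-17, limma). Adam12, a metalloprotease that cleaves Igfbp3 and Igfbp5, went the other way, from 96.4, 119 and 95.8 normalized counts in the controls to 1683, 1706 and 1686 with dexamethasone. Its log2 fold change of 4.02 (adjusted p = 6.70e-23, limma) was the largest upward change on the list. The gelatinase Mmp2 fell from 73812 ± 1754 to 36525 ± 1890 normalized counts (SD, n = 3) and the serine protease Htra3 from 516 ± 49.6 to 245 ± 18.4 (SD, n = 3). Their log2 fold changes of -1.02 and -1.07 were -0.9995 and -0.99 without control replicate 2, and that of Mmp2 was -0.99 without dexamethasone replicate 2, under the cut-off.

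Of the remaining listed genes, Ccn3, whose protein carries an IGF-binding-protein module, fell from 7397 ± 166 to 1828 ± 123 normalized counts (SD, n = 3), a log2 fold change of -2.02 (adjusted p = 1.27e-22, limma). Cebpb, a transcription factor of the C/EBP family, rose from 1989 ± 61.2 to 4915 ± 437 normalized counts (SD, n = 3), a log2 fold change of 1.30 (adjusted p = 1.21e-17, limma). Igfals, the acid-labile subunit of the circulating IGF complex, had 16.5, 24.5 and 21.1 normalized counts in the controls and 4.77, 14.2 and 11.6 with dexamethasone. Its log2 fold change of -1.05 (adjusted p = 0.0194, limma) was -0.63 (adjusted p = 0.126, limma) without dexamethasone replicate 1. The adjusted p-value of Igfals was also above 0.05 without control replicate 2 (0.07997, limma) or control replicate 3 (0.0532, limma). It was 0.0513 with DESeq2 on the recovered reads and 0.0610 with limma without a mean-variance trend. The log2 fold change was -0.80 with a pseudocount of 5 and -0.98 after quantile normalization, both short of the cut-off. Ghr, the growth hormone receptor, through which growth hormone induces Igf1, had a log2 fold change of -0.13 (adjusted p = 0.00205, limma), and the IGF2 mRNA-binding protein genes Igf2bp1, Igf2bp2 and Igf2bp3 had 0.20, 0.81 and 0.25. Grb14, Pdpk1 and Htra4 did not pass the adjusted p-value, with log2 fold changes of 0.08, 0.06 and -0.58.

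**Figure D5:**
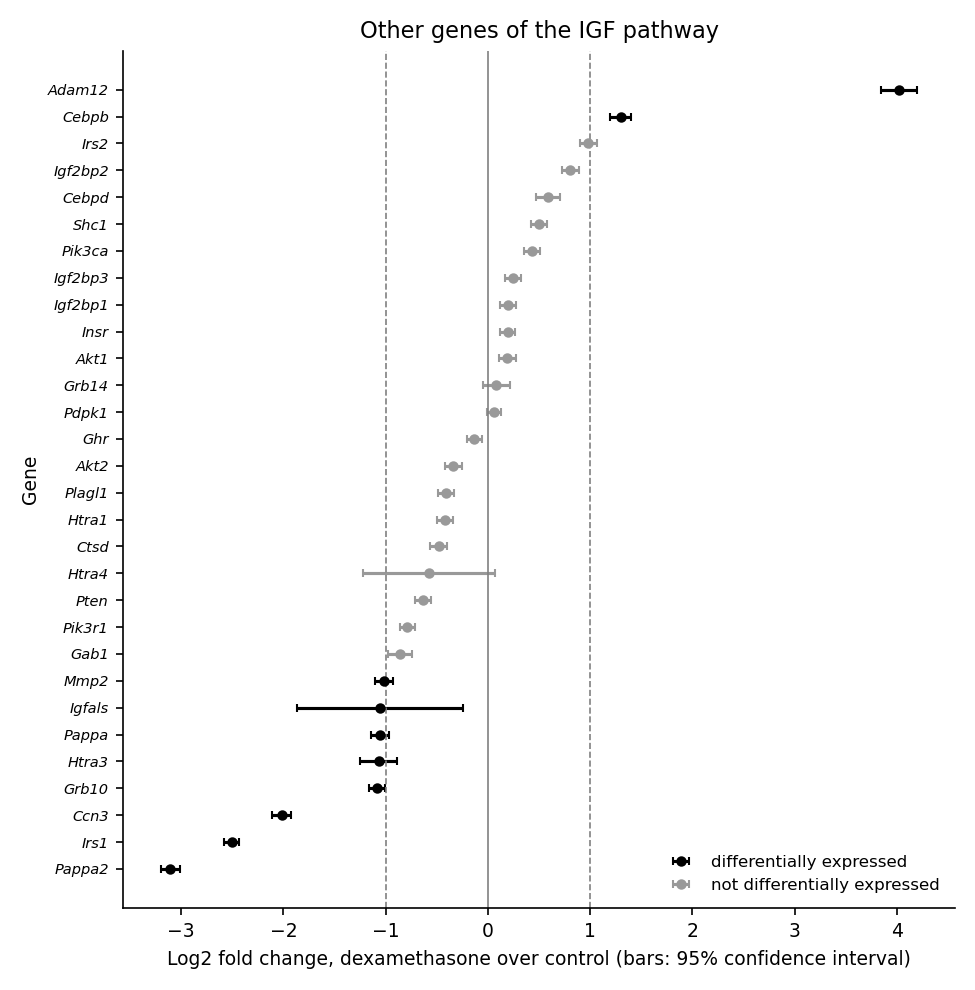
Log2 fold change, dexamethasone over control, of 30 of the 31 tested genes of the IGF pathway list, with 95% confidence intervals, in black where differentially expressed and grey where not, and dashed lines at the cut-off of 1 in each direction. Adam12 stands far to the right and Pappa2, Irs1 and Ccn3 far to the left of the rest.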

How the data were processed

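Per the labels and the study's methods, libraries were made with the KAPA Stranded mRNA-Seq Kit, and the authors aligned and counted reads with STAR 2.7.10a. The submitters' processing notes name GRCm39, and the annotation release and strand setting are not given in the sources used here. The deposited signal is the read count per gene divided by a DESeq2 (1.36.0) size factor. Whole reads were recovered for 100% of values (tolerance 0.01 reads). Between replicate libraries, counts differed by more than sampling noise (chi-square per degree of freedom 3.27 to 26.2). Deposited values were tested as log2(normalized count + 1) with limma 3.58.1 in R 4.3.3, with a mean-variance trend and Benjamini-Hochberg adjustment over 17442 genes whose mean reached 10, and the script was tested on simulated data. The cut-offs were an adjusted p of 0.05 and a log2 fold change of 1. Adding 1 makes changes of low genes look smaller. On the recovered reads, edgeR 4.0.16 called 3944 genes and DESeq2 1.42.0 called 3870, against 3894 with limma. Exon lengths are unions of GENCODE M21 exons, on an older build than the files, so no coordinates of the files were used. Shares and ratios were compared with exact permutation tests. The IGF genes, the pathway list and the marker lists were chosen with earlier results of these data known. Named were all IGF genes, every listed pathway gene differentially expressed (at most 12) and the 3 genes most like Igf1, while further pathway genes were picked with their values in view. The counts cover the whole pathway list, of which 1 gene is not reported here by name. The step for genes most like Igf2 could not be run. Counting limits cover counting error only.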

Additional observations from a re-analysis of the deposited data

How the results depend on the processing

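The fit was repeated under 17 alternatives: pseudocounts of 0.5 and 5, other filters, other scalings, no trend, edgeR and DESeq2 on recovered reads, a block for the replicate number, and each library left out. All 135 values of the 8 tested IGF genes kept their direction and an adjusted p under 0.05 (Igfbp2 gave none at a mean of at least 100), and 1 call was lost, that of Igf1r after quantile normalization (0.95). The number of IGF genes called went from 5 to 8 with the adjusted p alone, and that of the pathway list from 10 to 28. Over all genes it was 12645 with the adjusted p alone, and with a mean of at least 100 it was 2170 (1350 higher and 820 lower), against 3894 (2037 and 1857). With each library left out in turn the pathway count was 7 to 11. Same-numbered libraries did not deviate together (correlations of -0.10, -0.10 and -0.02). Such correlations cannot show whether the mice were paired by design, and the study's methods name littermates as controls. With the replicate block 3897 genes, 5 IGF genes and 10 pathway genes were called. With the mean transcript length, or without division by length, the share changes were -0.217 and -0.165 points for Igfbp2, -14.2 and -9.99 for Igfbp4, -1.37 and -4.94 for Igfbp5, 13.2 and 11.99 for Igfbp6, and 2.54 and 3.11 for Igfbp7, which reversed. The change in the log2 ratio of binding proteins to Igf1 was then 3.003 and 2.92. The ratio levels by mean transcript length, for Igf1r to Igf2r and for binding proteins to Igf1, were added after seeing the data. Depth limits Igfbp3 and Igfals, which rest on few reads.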
